A study of Mus musculus with 2 samples.

Results

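The cytochrome P450 genes were taken as the protein-coding genes whose symbol is Cyp followed by a family number, and they were described by that number. The rule found 100 genes of 54532 in the deposited table. Of these, 81 belonged to families 1 to 4 and 19 to families 7 and higher. The values came from macrophages of ApoE-/- mice, which lack apolipoprotein E and develop high blood cholesterol, on the C57BL/6J background. The labels give an age of 6 weeks for both groups, and the methods of the study say that the mice were male. The Phlegm-Dampness Retention (PDR) group received a high-fat diet for 4 weeks. The Spleen and Kidney Yang Deficiency (SKYD) group received propylthiouracil, which blocks thyroid hormone synthesis, at 10 mg/kg per day for 4 weeks, and then a high-fat diet for 2 weeks. Mice were fasted for 18 hours before sampling. Aortas were digested, cells were sorted on F4/80 and CD11b, and the cells of 5 mice were pooled, giving 1 library in each group. Syndrome, propylthiouracil, length of the diet and total time of treatment differ together between the groups and cannot be told apart. With 1 library in each group there was no spread between mice to test against, so values are given with folds and counting intervals and without p-values.

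P450 enzymes are haem proteins that insert an oxygen atom into fatty compounds, with electrons passed on from NADPH. Members of the low-numbered families mostly clear drugs and toxins or hydroxylate and epoxidise fatty acids such as arachidonic acid, and hepatocytes hold most of them. Members of the higher-numbered families each have a narrower task in making or breaking down cholesterol, bile acids, steroid hormones, vitamin D or retinoic acid, and several of these work inside mitochondria. Macrophages use a few of them, among them sterol hydroxylases and enzymes that end leukotriene signals.

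Fragments scaled by gene length and library size (FPKM) were deposited for both libraries. Because each value times the gene length was a whole multiple of 1 step, the reads behind every value could be recovered, 23086889 gene reads for PDR and 25427863 for SKYD. A gene without reads could hold up to 1.3e-05% of the reads in PDR and 1.18e-05% in SKYD, the limit that a count of 0 allows with 3 reads. Intervals are exact 95% Clopper-Pearson limits on the split of a gene's reads between the libraries. They and the limits for a count of 0 cover counting error only, since amplified reads are not independent molecules. For a gene at 0 in 1 library, the bound on its fold sets the 0 to 3 reads. It takes the other count as it is, so it is not a 95% limit.

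The label of macrophages was checked against 14 marker genes, which all had a mean FPKM of at least 1. Lyz2, the lysozyme of myeloid cells, had an FPKM of 22217 in PDR and 41336 in SKYD. The complement genes C1qb, C1qc and C1qa and the receptor Cd14 were more than 2-fold higher in SKYD, and the macrophage list, most of whose reads were on Lyz2, took 3.40% of reads in PDR and 6.30% in SKYD. Marco with 8.80 in PDR and 4.47 in SKYD, Fcgr1 with 51.9 and 35.3 and Csf1r with 57.7 and 44.9 were higher in PDR by FPKM. Adgre1, which encodes the sorted antigen F4/80, had an FPKM of 87.3 in PDR and 93.3 in SKYD. Itgam, which encodes the sorted antigen CD11b, had 8.84 and 14.4. Markers of the labelled cell type were thus present in both libraries, next to markers of other cells that the sort should remove. In these bulk samples, fewer cells of a type and less RNA per cell cannot be told apart.

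Most of the P450 genes were silent or close to it. Of the 100 genes, 34 had no read in either library, 30 had reads but a mean FPKM below 1, and 36 had a mean FPKM of at least 1. Of the 36, 6 passed this filter although their FPKM in SKYD was below 1, and none passed with an FPKM below 1 in PDR. A gene that passed only through PDR had to be higher there, so counts over the 36 describe a subset of the family. The last genes inside the limit were Cyp4f14, Cyp2c23 and Cyp4f17, with mean FPKM of 1.26, 1.17 and 1.12. The first genes outside were Cyp3a13, Cyp4a12b and Cyp2c55, with 0.980, 0.871 and 0.859.

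Differences are given as log2(FPKM + 1) in PDR minus SKYD, which understates the change of low genes. Of the 29 genes of families 1 to 4 that passed the filter, 23 were more than 2-fold higher in PDR, where 7.38% of all 10399 genes tested passed that fold in that direction. Of the 29, 5 passed only through PDR, with an FPKM below 1 in SKYD. Cyp2j5, Cyp2c23, Cyp4a12a and Cyp4f17 of these are among the 23. Only Cyp2ab1 of the 29 was more than 2-fold higher in SKYD, where 6.91% of all genes tested were. Of the 7 genes of families 7 and higher that passed, Cyp8b1 was more than 2-fold higher in PDR and Cyp26a1 more than 2-fold higher in SKYD, and 5 lay within 2-fold on this scale. Over all 100 genes and without any filter, 49 had the higher FPKM in PDR and 17 in SKYD. Over all genes of the deposited table, 9478 had the higher FPKM in PDR and 12239 in SKYD. Rescaling all values to the same sum (TPM) and shares of gene reads or of protein-coding reads each change the fold of all genes by the same factor, towards PDR, and centring on the median gene adds the same small amount to every difference. Shares of protein-coding reads moved the median of all genes tested with reads in both libraries to 0.13, the others to at most 0.05. Shifts of this size and direction could not turn the direction of any of the 36 genes, though on the scale with 1 added TPM changed the size of differences unequally.

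**Figure D1:**
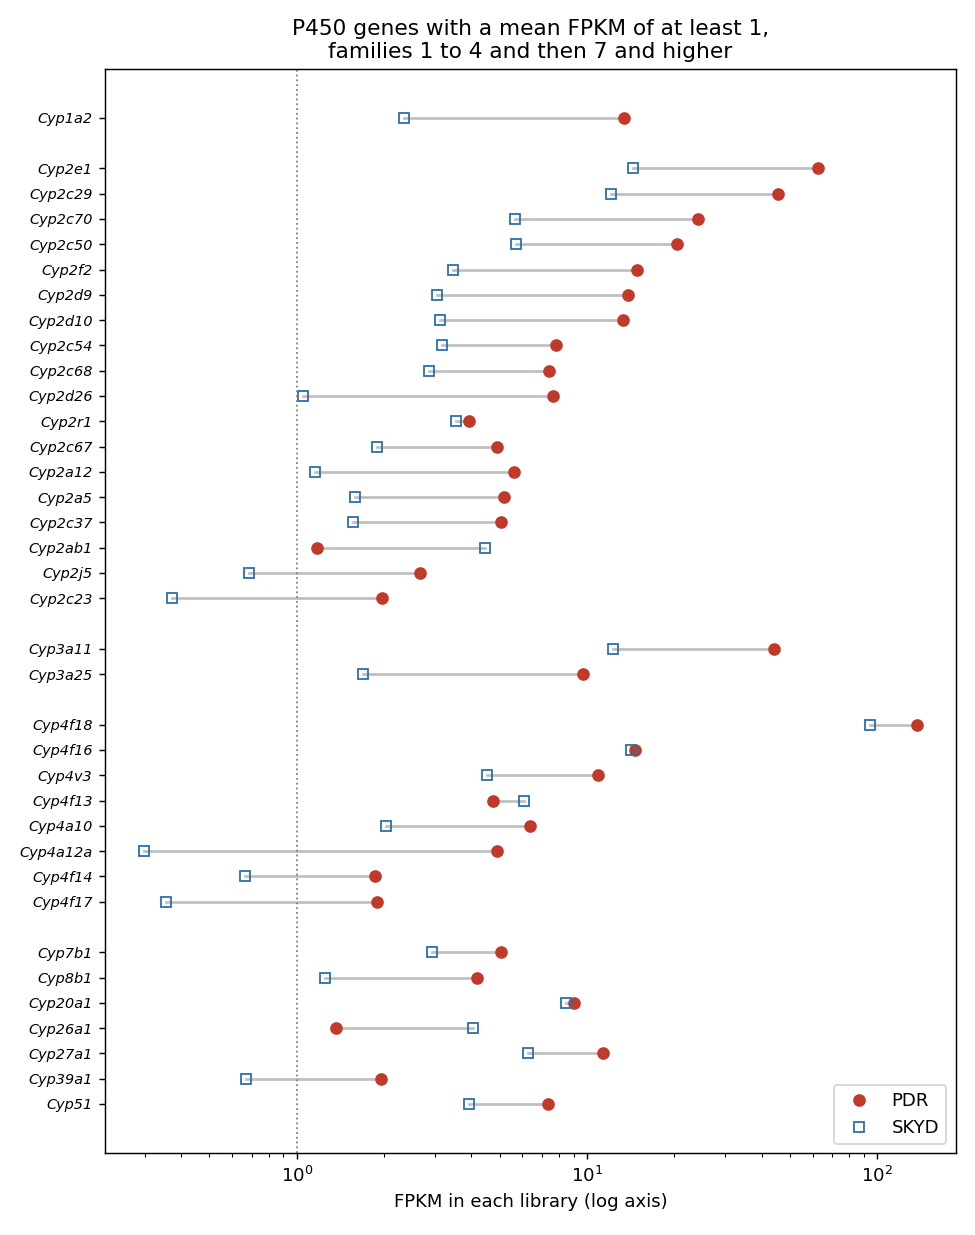
FPKM in the PDR library (filled circles) and the SKYD library (open squares) on a log axis for the 36 P450 genes that passed the filter, ordered by family and mean level, with a dotted line at 1. Most pairs of families 1 to 4 lie apart with PDR higher, while Cyp4f16, Cyp2r1 and Cyp20a1 lie close together and Cyp2ab1, Cyp4f13 and Cyp26a1 are higher in SKYD.

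Most of the genes share a stretch typical of P450 enzymes. A stretch of 10 residues around the cysteine that holds the haem iron was searched, with its fixed residues at a set spacing. It was found in the translated coding sequence of 95 of 100 genes and not in Cyp2b10, Cyp2s1, Cyp3a59, Cyp8b1 and Cyp20a1. The 30 coding bases of this stretch are shown for the most abundant genes of several families, from GENCODE M21 transcripts, with the cysteine codon in capitals:
Cyp1a2: ttcggcttgggaaagcgccggTGCattggg
Cyp2e1: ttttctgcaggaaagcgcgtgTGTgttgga
Cyp3a11: tttgggaatggacccaggaacTGCcttggc
Cyp4f18: ttctcggctgggcccaggaacTGCatagga
Cyp7b1: tttggactcggaacaagcaaaTGTccaggg
Cyp26a1: tttggaggaggccttcggagcTGTgtaggc
Cyp27a1: ttcggctatggggttcggtctTGCctgggt
Cyp51: tttggagctgggcgtcatcgtTGTgttgga
The cysteine was encoded by TGC in 57 of the 95 genes and by TGT in 38. Over whole proteins the families differ widely. Proteins of the same subfamily shared a median of 71.0% of residues and those of the same family but different subfamilies 40.8%. A protein of families 1 to 4 shared from 18.1% to 37.0% with a protein of families 7 and higher.

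Family 1 holds the enzymes induced through the aryl hydrocarbon receptor, which clear planar aromatic compounds. Cyp1a2 (ENSMUSG00000032310, chr9:57676937-57683703), which clears caffeine and arylamines in the liver, had an FPKM of 13.5 in PDR and 2.35 in SKYD, from 636 and 118 reads. This was 5.74-fold higher in PDR (95% CI 4.71 to 7.04). Its neighbour Cyp1a1, the member that many tissues induce, had no read in either library. Cyp1b1, found mainly outside the liver, had 0 reads in PDR and 10 in SKYD, 3.13-fold higher in SKYD with the 0 set to 3 reads. The family thus had 1 member with sizeable levels, and that was the member typical of liver.

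Family 2, with 49 genes, is the largest and held 18 of the 36 genes that passed the filter. Of these 18, 16 were more than 2-fold higher in PDR, 1 was more than 2-fold higher in SKYD and 1 lay within 2-fold. Together the 49 genes had 14238 reads in PDR and 4408 in SKYD, a share of reads 3.56-fold higher in PDR (95% CI 3.44 to 3.68).

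Cyp2e1 (ENSMUSG00000025479, chr7:140763739-140774987), which oxidises ethanol and acetone, had the highest mean FPKM of the family, 62.7 in PDR and 14.4 in SKYD. It was 4.36-fold higher in PDR (95% CI 4.03 to 4.72). The subfamily of Cyp2c genes epoxidises arachidonic acid, and each of the 12 of its 15 genes with reads had the higher FPKM in PDR. Cyp2c29 had an FPKM of 45.7 in PDR and 12.1 in SKYD, and Cyp2c50 had 20.5 and 5.69. Cyp2c70, which makes the muricholic bile acids of mice, had 24.1 in PDR and 5.63 in SKYD. These 3 genes were 3.77-fold, 3.61-fold and 4.27-fold higher in PDR. Cyp2c54, Cyp2c68, Cyp2c67 and Cyp2c37 had smaller folds, from 2.46 for Cyp2c54 to 3.24 for Cyp2c37, while Cyp2c23 had 5.32 from only 100 and 20 reads. Below the filter, Cyp2c55 had 73 reads in PDR and 8 in SKYD, Cyp2c40 had 57 and 14, Cyp2c69 had 30 and 2, and Cyp2c38 had 22 and 17. The fold of Cyp2c69 had an interval from 4.05 to 138, which shows how little such counts fix.

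The Cyp2d genes, relatives of the human enzyme that clears many antidepressants, moved in the same direction where they passed the filter. Cyp2d9, which hydroxylates testosterone in male liver, had an FPKM of 13.9 in PDR and 3.06 in SKYD. Cyp2d10 had 13.3 and 3.11, and Cyp2d26 had 7.67 and 1.05. Their folds were 4.54, 4.27 and 7.31, and the interval of Cyp2d26 (5.37 to 10.2) lay above the interval of Cyp2d9 (3.89 to 5.32) and of Cyp2d10 (3.51 to 5.23). Cyp2d22 and Cyp2d40, below the filter, had 96 and 54 reads in PDR and 40 and 13 in SKYD. Of the other clusters, Cyp2a12 had an FPKM of 5.62 in PDR and 1.16 in SKYD, and Cyp2a5, which hydroxylates coumarin and nicotine, had 5.18 and 1.58. Cyp2f2, known for activating naphthalene in club cells of the lung and also present in liver, had 14.8 and 3.46, 4.29-fold higher in PDR. Cyp2j5, an epoxygenase of kidney and liver, had 2.67 and 0.682. Cyp2b10, the classical target of the receptor for phenobarbital-like inducers, stayed below the filter with 61 reads in PDR and 13 in SKYD.

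The family also held genes that did not follow this direction. Cyp2r1, which carries out the first hydroxylation of vitamin D, had an FPKM of 3.93 in PDR and 3.54 in SKYD. Its fold of 1.11 had an interval from 0.903 to 1.36, so a difference was not detectable at this depth. Cyp2ab1 (ENSMUSG00000022818, chr16:20308387-20325404), whose substrates are little known, had 1.18 in PDR and 4.44 in SKYD, 3.77-fold higher in SKYD (95% CI 2.97 to 4.83). The widely expressed Cyp2j6, Cyp2s1 and Cyp2u1 stayed below the filter with 70, 76 and 27 reads in PDR and 61, 57 and 21 in SKYD, and each of their intervals included no difference.

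Family 3 oxidises steroids, bile acids and a large share of drugs in liver and intestine. Cyp3a11 (ENSMUSG00000056035, chr5:145854426-145879964), the main member of adult mouse liver, had an FPKM of 44.3 in PDR and 12.3 in SKYD, 3.60-fold higher in PDR (95% CI 3.40 to 3.81). Cyp3a25 had 9.71 and 1.69, 5.74-fold higher in PDR (95% CI 4.57 to 7.30). Its interval lay above that of Cyp3a11, so the ratio between these genes also differed between the libraries beyond counting error. Cyp3a13, known from the intestine, lay just below the filter with 107 reads in PDR and 31 in SKYD. Cyp3a59, whose protein is over 90% identical to that of Cyp3a25, had 0 reads in PDR and 16 in SKYD. With the 0 set to 3 reads it was 5.01-fold higher in SKYD. The remaining 5 genes of the family had no read in either library.

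Family 4 hydroxylates the ends of fatty acids and eicosanoids. On the scale of log2(FPKM + 1), 4 of its 8 genes that passed the filter were more than 2-fold higher in PDR while 4 lay within 2-fold. Cyp4f18 (ENSMUSG00000003484, chr8:71988482-72009626), which inactivates leukotrienes in neutrophils and other myeloid cells, had the highest FPKM of all P450 genes in both libraries, 137 in PDR and 94.7 in SKYD. By FPKM it ranked 590 of the genes tested in PDR and 842 in SKYD. It was 1.45-fold higher in PDR (95% CI 1.39 to 1.51), a smaller difference than that of most genes of family 2. Cyp4f16 had 14.7 and 14.2, and its fold of 1.04 had an interval from 0.953 to 1.13. Cyp4f13 had 4.76 in PDR and 6.07 in SKYD, 1.28-fold higher in SKYD (95% CI 1.11 to 1.46). Cyp4v3, a fatty acid hydroxylase of many tissues, had 10.9 and 4.54, 2.40-fold higher in PDR. The low genes Cyp4f14 and Cyp4f17 had 105 and 75 reads in PDR and 40 and 15 in SKYD. By FPKM Cyp4f14 was 2.79-fold higher in PDR, but it lay within 2-fold with 1 added. Cyp4f39, which hydroxylates very long fatty acids in skin, had 41 reads in PDR and 0 in SKYD, at least 14.5-fold higher in PDR, and was the only P450 gene with reads in PDR and none in SKYD.

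The Cyp4a genes of the family hydroxylate medium-length fatty acids in liver and kidney, and their summed reads were 744 in PDR and 173 in SKYD. Cyp4a12a, a male-predominant member, had an FPKM of 4.90 in PDR and 0.297 in SKYD, from 279 and 18 reads. Its fold of 16.5 (95% CI 10.2 to 28.2) was the largest among the 36 genes that passed the filter, which it passed only through PDR. Cyp4a12b, whose protein is 97.8% identical to that of Cyp4a12a, had 83 and 16 reads. As 35.8% of the 100-base stretches of the Cyp4a12a transcript also occur in Cyp4a12b transcripts, the division of reads between these 2 genes is uncertain. The members that fibrates induce through the receptor PPARA were Cyp4a10, with 316 and 107 reads, Cyp4a14, with 65 and 25, Cyp4a31, with 1 and 1, and Cyp4a32, with 0 and 6. Cyp4a10 was 3.14-fold higher in PDR and Cyp4a14 2.77-fold.

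Within families 1 to 4, a list of 14 genes known from leukocytes or from many tissues was set apart, a split chosen after seeing the data. In this list, 6 genes passed the filter, with a median difference of 0.32, from -0.30 for Cyp4f13 to 1.11 for Cyp4v3. Of these 6, 2 were more than 2-fold higher in PDR, Cyp4v3 and Cyp4f17. Over the whole list, 10 genes had the higher FPKM in PDR, among them Cyp4f39 and Cyp2d22 below the filter, and 3 in SKYD, among them Cyp2j9 with 0 and 9 reads. Cyp4x1 had none in either library. Of the other 67 genes of these families, 23 passed, with a median of 1.69 from -1.32 for Cyp2ab1 to 2.19 for Cyp4a12a, and 21 of them were more than 2-fold higher in PDR. The median over all genes tested was -0.00. By reads, the 14 genes had 8947 in PDR and 6795 in SKYD, while the other 67 genes had 21156 and 6095. As shares of reads these were 1.45-fold and 3.82-fold higher in PDR, and because of how the split was chosen the gap between them is a description only. Cyp4f18 alone made up 39.1% of the summed FPKM of all P450 genes in SKYD and 24.8% in PDR.

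**Figure D2:**
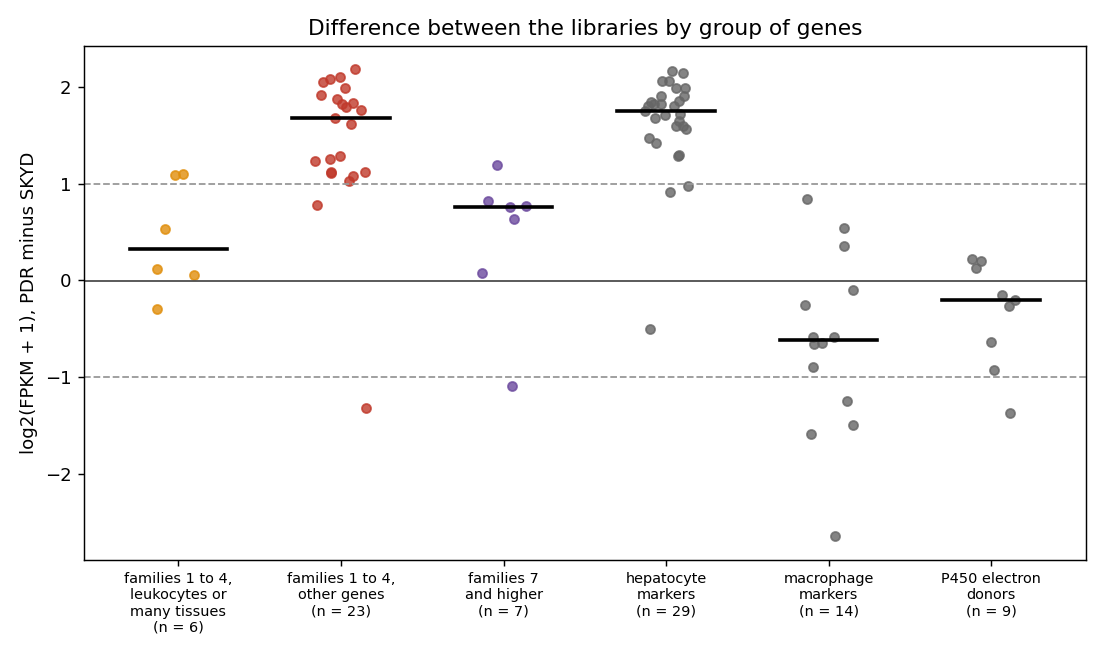
Difference in log2(FPKM + 1) between the libraries, PDR minus SKYD, with 1 point for each gene with a mean FPKM of at least 1, black bars at the medians, dashed lines at 2-fold and a grey line at the median of all genes tested. The 23 other genes of families 1 to 4 and the 29 hepatocyte markers lie at similar heights, each with 1 gene far below the rest, Cyp2ab1 and Trf.

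Families 7 and higher held 19 genes, of which 13 had reads and 7 passed the filter. The genes for bile acid synthesis from cholesterol were the best represented. Cyp27a1 (ENSMUSG00000026170, chr1:74713574-74737892), a mitochondrial enzyme that hydroxylates the cholesterol side chain and is active in macrophages as well as liver, had an FPKM of 11.4 in PDR and 6.26 in SKYD. It was 1.82-fold higher in PDR (95% CI 1.59 to 2.09). Cyp7b1, which hydroxylates oxysterols, had 5.07 and 2.92, 1.74-fold higher in PDR (95% CI 1.42 to 2.13). Cyp8b1 (ENSMUSG00000050445, chr9:121914356-121916305), which sets the share of cholic acid and is confined to liver in textbook accounts, had 4.17 and 1.25, 3.33-fold higher in PDR (95% CI 2.49 to 4.52). The interval of Cyp8b1 lay above those of Cyp27a1 and Cyp7b1. Cyp39a1, which acts on a brain-derived oxysterol in liver, had 140 reads in PDR and 51 in SKYD, 2.92-fold higher in PDR by FPKM but within 2-fold with 1 added. Cyp7a1, the rate-limiting enzyme of the route, went against them with 0 reads in PDR and 8 in SKYD. With the 0 set to 3 reads it was 2.51-fold higher in SKYD. Cyp46a1, which turns over cholesterol in the brain, had 0 and 6.

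Cyp51 (ENSMUSG00000001467, chr5:4081145-4104746), which removes a methyl group from lanosterol in cholesterol synthesis in nearly every cell, had an FPKM of 7.34 in PDR and 3.91 in SKYD. It was 1.87-fold higher in PDR (95% CI 1.66 to 2.11). Cyp20a1, an enzyme without a well-known substrate, had 483 reads in PDR and 486 in SKYD, and its fold of 1.06 had an interval from 0.931 to 1.20. Cyp51 and Cyp20a1 thus lay within 2-fold.

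Retinoic acid is broken down by the enzymes of family 26. Cyp26a1 (ENSMUSG00000024987, chr19:37697808-37701528) had an FPKM of 1.37 in PDR and 4.04 in SKYD, from 57 and 179 reads. It was 2.95-fold higher in SKYD (95% CI 2.18 to 4.05), opposite in direction to the other genes of these families that passed the filter. Cyp26b1 had 0 reads in PDR and 4 in SKYD, and Cyp26c1 had none. Cyp26a1 is itself induced by retinoic acid through direct repeats in its promoter, so the bases before its start are shown, from the RefSeq promoter table (GRCm38.p6, chr19:37697558-37697807, plus strand), with a match to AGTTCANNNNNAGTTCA on the minus strand in capitals:
Cyp26a1: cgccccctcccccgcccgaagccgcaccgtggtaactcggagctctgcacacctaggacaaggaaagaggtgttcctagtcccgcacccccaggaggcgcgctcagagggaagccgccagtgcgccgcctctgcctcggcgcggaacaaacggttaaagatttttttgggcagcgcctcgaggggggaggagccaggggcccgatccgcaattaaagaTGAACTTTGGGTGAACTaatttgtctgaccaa
The match starts 32 bases before the start. The same letters on either strand occurred in 8 of all 32851 promoters (0.0244%), and among 87 P450 promoters in this one. Only this spelling of the repeat was searched, and it is the spelling of the Cyp26a1 match. These counts therefore do not show how rare such elements are.

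The enzymes of steroid hormone synthesis were nearly absent. Cyp11a1, which cleaves the cholesterol side chain, had 45 reads in PDR and 37 in SKYD, an FPKM of 0.399 and 0.308 with an interval of the fold from 0.819 to 2.06. Cyp21a1 had 0 and 5 reads and Cyp11b1 had 0 and 2. Cyp11b2, Cyp17a1 and the aromatase Cyp19a1 had none. For vitamin D, Cyp2r1 was detected, while Cyp27b1, which activates the vitamin in kidney and activated macrophages, and Cyp24a1, which degrades it, had no read in either library. Among the 6 mitochondrial enzymes, Cyp27a1 was therefore the only one above the filter.

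Set against each other, the sides differed in size. Families 1 to 4 took 0.130% of reads in PDR (95% CI 0.129 to 0.132) and 0.0507% in SKYD (95% CI 0.0498 to 0.0516), a ratio of 2.57 (95% CI 2.52 to 2.63). Families 7 and higher took 0.0109% in PDR (95% CI 0.0105 to 0.0113) and 0.00696% in SKYD (95% CI 0.00664 to 0.00729), a ratio of 1.57 (95% CI 1.47 to 1.67). These intervals do not overlap. Without Cyp4f18, which had the most reads, the ratio of families 1 to 4 was 3.13. The median difference was 1.26 over the 29 genes of families 1 to 4 and 0.76 over the 7 genes of families 7 and higher, beside -0.00 over all genes tested. With no filter these medians were 0.84 over 53 genes with reads and 0.0724 over 13. Of those 13 genes of families 7 and higher, 7 had the higher FPKM in PDR and 6 in SKYD, beside 9478 and 12239 of all genes. The median fold of FPKM was 3.61 over the 29 genes, 1.82 over the 7 genes and 3.54 over 29 hepatocyte markers. Families 7 and higher made up 7.71% of P450 reads in PDR and 12.1% in SKYD.

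The low counts showed a pattern of their own. Of the 21 P450 genes with 2 to 16 reads in SKYD, 13 (61.9%) had none in PDR. Over all genes in this range, which was taken from those 13 genes, 2588 of 5296 (48.9%) had none in PDR, so many genes with few reads in SKYD had none in PDR, P450 genes or not. In the other direction, 775 of 3637 genes (21.3%) with 2 to 16 reads in PDR had none in SKYD. The PDR library had reads on 17738 genes and the SKYD library on 20499. The bounds of the P450 genes at 0 in PDR, such as Cyp3a59, Cyp4b1 with 11 reads in SKYD and Cyp2g1 with 7, stand beside this background, whose source was not tested.

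**Figure D3:**
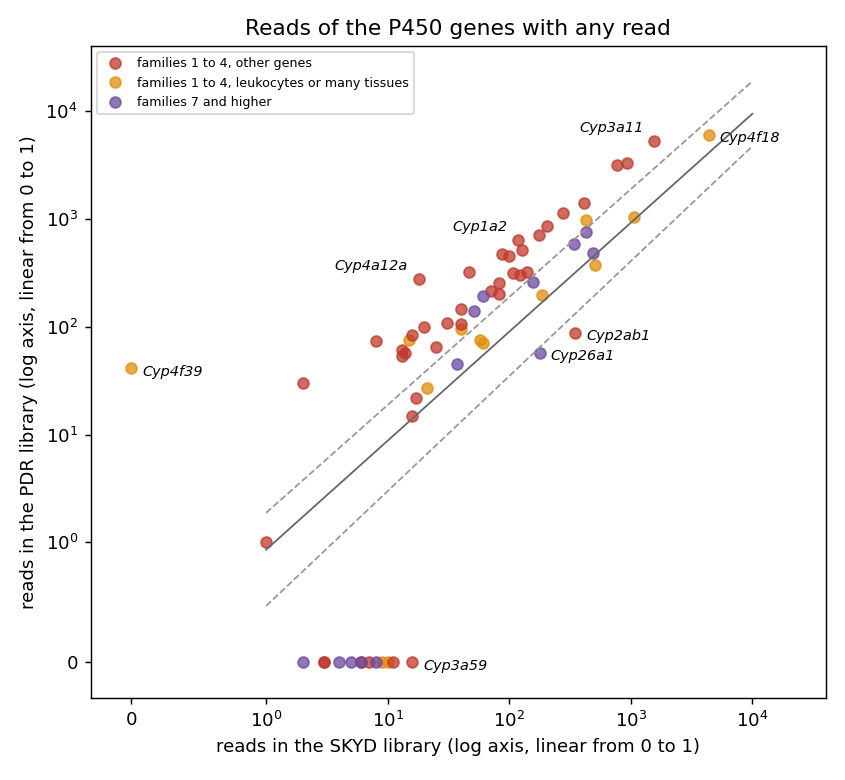
Reads in the PDR library against reads in the SKYD library for the 66 P450 genes with any read, on log axes that are linear from 0 to 1, with a solid line at equal FPKM and dashed lines at 2-fold. Most genes with over 20 reads lie on or above the upper dashed line, and 13 genes with few reads in SKYD lie at 0 in PDR.

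Most genes of families 2 to 4 lie in clusters of recent copies, and in several clusters the genes that passed the filter shared a direction while their folds differed. All 7 genes of the Cyp2c cluster on chromosome 19 that passed the filter were more than 2-fold higher in PDR, with differences from 1.03 to 1.92. The same held for all 3 of the Cyp2d cluster on chromosome 15 (1.80 to 2.08), all 3 of the cluster with Cyp2a and Cyp2f2 on chromosome 7 (1.26 to 1.83) and both of the Cyp3a cluster on chromosome 5. The Cyp4f cluster on chromosome 17 held 4 genes that passed, from -0.30 for Cyp4f13 to 1.09 for Cyp4f17, and Cyp4f15 of this cluster had 15 and 16 reads. Its relative Cyp4f18 lies apart on chromosome 8. In each of the 7 clusters, genes with reads stood beside genes with none in either library.

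**Figure D4:**
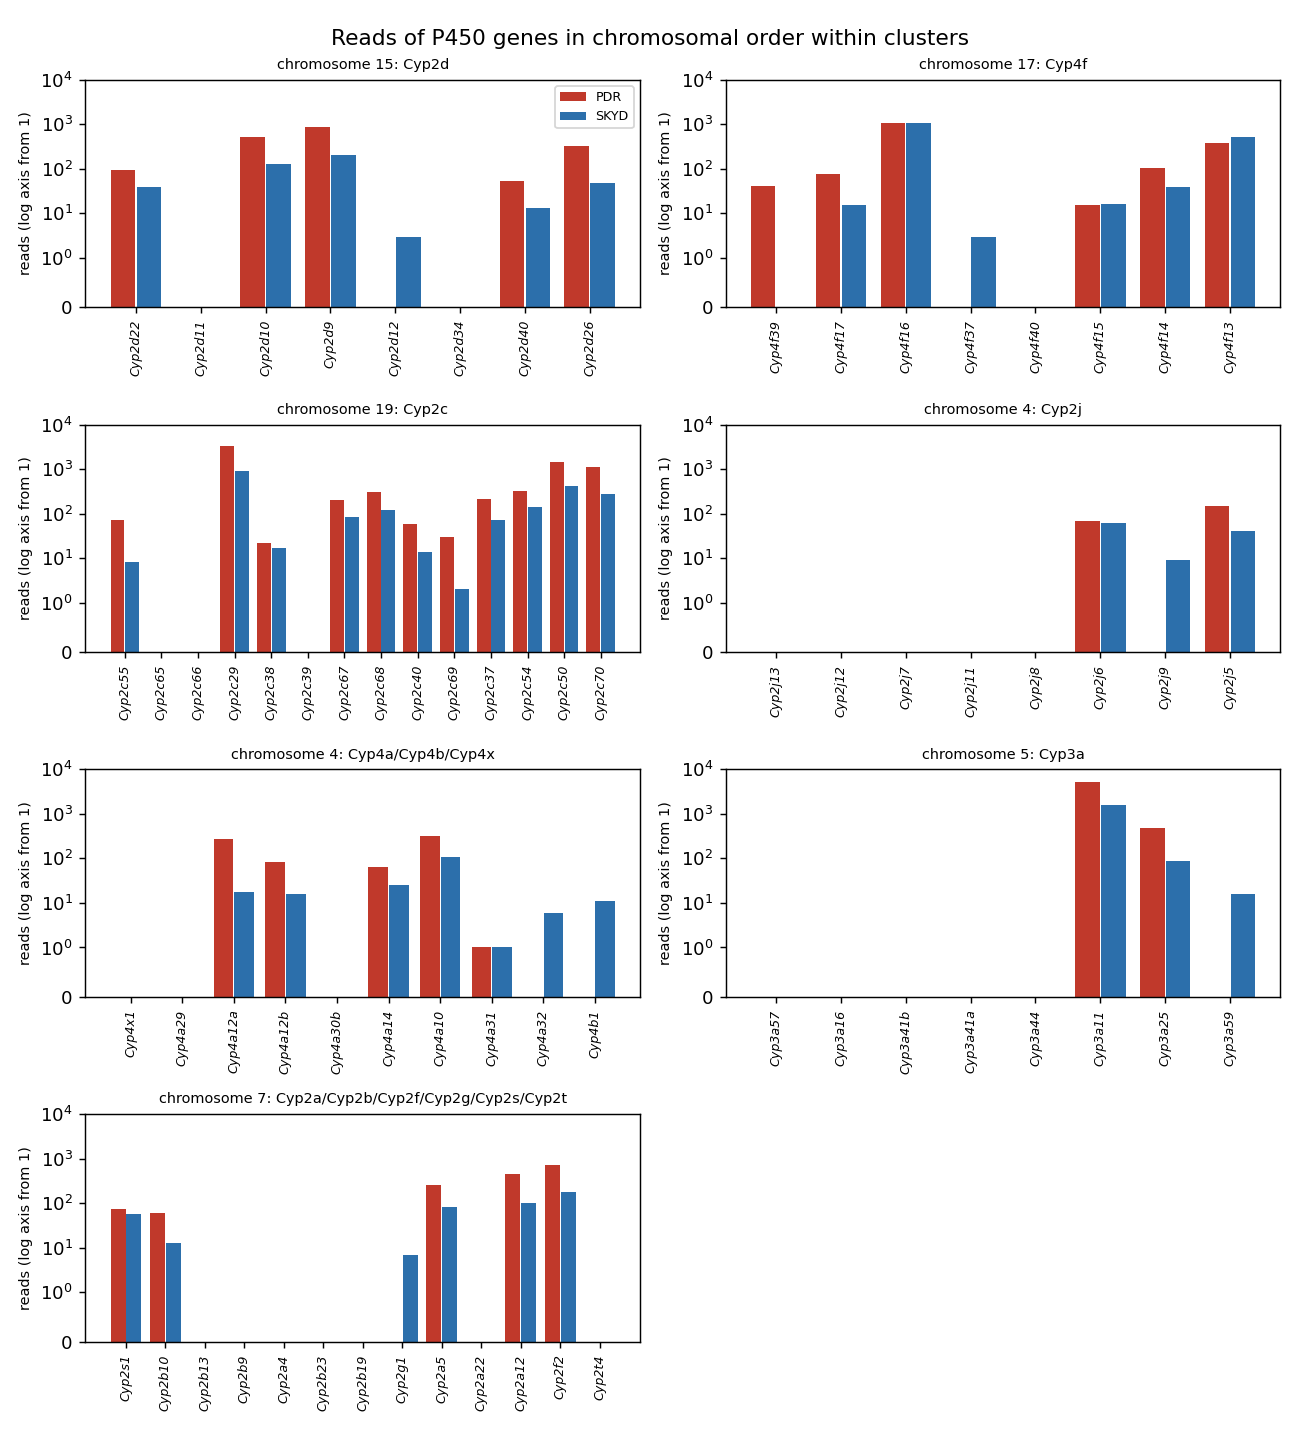
Reads in the PDR library (red bars) and the SKYD library (blue bars) for the genes of 7 P450 clusters in chromosomal order, on an axis that is linear from 0 to 1 and logarithmic above. The Cyp2c, Cyp2d and Cyp3a clusters hold genes with many reads and silent copies, and in the Cyp4f cluster PDR is not higher throughout.

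The silent copies included all 7 genes of a list of P450 genes that predominate in female liver. Cyp2a4, Cyp2b9, Cyp2b13, Cyp3a16, Cyp3a41a, Cyp3a41b and Cyp3a44 had no read in either library. The 4 genes of the list of male-predominant liver P450 genes, Cyp2d9, Cyp4a12a, Cyp4a12b and Cyp7b1, all had reads in both libraries and the higher FPKM in PDR. The mice were male. Reads of near-identical copies may be left out or split in counting, because Cyp3a41a and Cyp3a41b encode identical proteins and share 90.8% and 88.2% of their 100-base transcript stretches with other genes. Cyp2a4 shares 11.2% of its stretches, mainly with Cyp2a5, and its protein is 97.6% identical to that of Cyp2a5. In all, 33 of the 100 proteins were at least 90% identical to another P450 protein, and 51 transcripts shared at least 1 stretch of 100 bases with another gene.

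Promoters were compared because most genes of families 1 to 4 that passed the filter moved in the same direction and many of them are known targets of liver transcription factors. The RefSeq table held 87 promoters of 77 of the 100 genes, each with 250 bases before and 50 after the start. The letters CAAAGTCCA, bound by the liver factor HNF4A, were found on either strand in 10 of 73 promoters of families 1 to 4 (13.7%) and in 0.475% of all 32851 promoters. In families 7 and higher they were found in 1 of 14, that of Cyp8b1. Of the 19 promoters of genes of families 1 to 4 that were more than 2-fold higher in PDR, 4 held them (21.1%), those of Cyp2c67, Cyp2c68, Cyp2c70 and Cyp3a11. Of the 54 other promoters of these families 6 held them (11.1%). Among the genes of these 6, Cyp2c40 and Cyp2c69 also had more reads in PDR. Cyp2c65, Cyp3a16, Cyp3a41a and Cyp3a41b had no read in either library. All 10 promoters of families 1 to 4 with these letters belong to the Cyp2c and Cyp3a clusters of recent copies. They are therefore not independent of each other, and the percentages count each copy. Copies were counted in the same way for the other letters below. Shown are the bases before the start on the gene's own strand and outside the gene as deposited, for the expressed Cyp2c68 (chr19:39741102-39741351, minus strand), Cyp2c70 (chr19:40187334-40187536, minus strand) and Cyp8b1 (chr9:121916306-121916555, minus strand), the silent Cyp3a16 (chr5:145469724-145469973, minus strand) and the myeloid Cyp4f18 (chr8:72009627-72009876, minus strand). Capitals mark CAAAGTCCA and the TATA box letters TATAAA:
Cyp2c68: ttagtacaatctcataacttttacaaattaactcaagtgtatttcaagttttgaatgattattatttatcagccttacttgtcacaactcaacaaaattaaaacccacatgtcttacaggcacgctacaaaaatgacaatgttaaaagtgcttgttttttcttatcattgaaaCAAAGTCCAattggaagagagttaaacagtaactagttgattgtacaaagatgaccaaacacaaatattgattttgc
Cyp2c70: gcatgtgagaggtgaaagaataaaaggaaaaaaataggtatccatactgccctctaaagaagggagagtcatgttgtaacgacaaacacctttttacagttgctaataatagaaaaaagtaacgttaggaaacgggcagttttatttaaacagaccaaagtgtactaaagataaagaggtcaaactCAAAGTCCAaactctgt
Cyp8b1: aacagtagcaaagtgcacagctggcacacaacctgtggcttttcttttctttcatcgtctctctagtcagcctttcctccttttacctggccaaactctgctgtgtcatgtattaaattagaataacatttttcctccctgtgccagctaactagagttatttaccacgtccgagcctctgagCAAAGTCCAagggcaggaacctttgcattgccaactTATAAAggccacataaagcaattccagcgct
Cyp3a16: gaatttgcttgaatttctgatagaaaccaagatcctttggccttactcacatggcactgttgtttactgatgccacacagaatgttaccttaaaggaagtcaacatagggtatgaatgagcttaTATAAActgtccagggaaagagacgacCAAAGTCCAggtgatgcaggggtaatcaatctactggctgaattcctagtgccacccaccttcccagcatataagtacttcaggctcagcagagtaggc
Cyp4f18: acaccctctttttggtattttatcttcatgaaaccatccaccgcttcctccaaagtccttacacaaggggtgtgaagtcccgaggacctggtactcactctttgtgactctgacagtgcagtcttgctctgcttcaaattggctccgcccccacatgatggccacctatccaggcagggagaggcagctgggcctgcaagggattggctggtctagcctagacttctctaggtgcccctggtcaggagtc
CAAAGTCCA starts 77 bases before the start in Cyp2c68, 64 in Cyp2c70, 67 in Cyp8b1 and 99 in Cyp3a16, and neither motif is in the Cyp4f18 window. TATAAA was found in 12 of the 19 promoters of the genes more than 2-fold higher in PDR (63.2%), in 17 of the other 54 of families 1 to 4 (31.5%) and in 13.6% of all promoters. GGGCGG, the GC box of many housekeeping promoters, went the other way, with 2 of the 19, 11 of the 54 (20.4%) and 35.7% of all promoters. Of the other letters searched, TTGCNNAA of C/EBP factors was found in 19 of 73 promoters of families 1 to 4 and 10.8% of all, TGTTTAC of FOXA factors in 10 of 73 and 3.65%, and GTTAAT of HNF1 factors in 10 of 73 and 7.10%. For these letters the 19 and the 54 promoters differed less or the other way, with 26.3% and 25.9% for TTGCNNAA, 10.5% and 14.8% for TGTTTAC and 15.8% and 13.0% for GTTAAT. In families 7 and higher, TATAAA was found in 5 of 14 promoters, GGGCGG in 6, TTGCNNAA in 2, GTTAAT in 1 and TGTTTAC in 0. These matches describe sequence and not binding.

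Most of the liver transcription factors had few reads. Of a list of 21 regulators of P450 genes, 8 passed the filter, with a median difference of -0.21. Over the whole list and without any filter, 10 had the higher FPKM in PDR and 10 in SKYD. Cebpb, with an FPKM of 194 in PDR and 360 in SKYD, Nr1h3, the liver X receptor of macrophages, with 13.2 and 14.3, and Srebf2 with 8.96 and 7.71 were the most abundant. Of the 8, only Nr0b2, which represses bile acid synthesis in liver, was past 2-fold on the scale of log2(FPKM + 1), with 131 reads in PDR and 29 in SKYD. Below the filter, Hnf4a had 64 reads in PDR and 6 in SKYD, 11.4-fold higher in PDR, at an FPKM of 0.564 and 0.0497. Ppara had 59 and 20 reads, Foxa3 28 and 11, Nr1h4 22 and 9 and Foxa1 17 and 0. Vdr went the other way with 23 reads in PDR and 149 in SKYD, 6.09-fold higher in SKYD. By FPKM itself, Cebpa with 3.04 in PDR and 6.92 in SKYD was past 2-fold towards SKYD. The aryl hydrocarbon receptor Ahr had 52 and 170 reads, lower in PDR, while its liver target Cyp1a2 was higher there.

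The partners that pass electrons to P450 enzymes did not follow them. Of 10 genes of this list, 9 passed the filter, with a median difference of -0.20. None was more than 2-fold higher in PDR. Por, the reductase that serves the microsomal P450 enzymes, had an FPKM of 12.1 in PDR and 14.7 in SKYD. Cyb5a, the cytochrome that assists many of them, was the most abundant, with 136 in PDR and 355 in SKYD, and alone past 2-fold on the scale of log2(FPKM + 1). By FPKM itself, Pgrmc2 with 1.18 in PDR and 3.16 in SKYD was past 2-fold too. Pgrmc1 and Cyb5b, next in abundance, had 50.6 and 22.3 in PDR and 43.4 and 19.2 in SKYD. Of the mitochondrial donors, Fdx1 had 8.04 in PDR and 9.01 in SKYD, and Fdxr had 4.60 and 4.11.

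Hepatocyte markers outside the P450 genes moved with families 1 to 4. Of 30 markers, 29 passed the filter, with a median difference of 1.75. More than 2-fold higher in PDR were 26 of them, and 0 in SKYD. All 30 had reads in both libraries. The list took 0.522% of reads in PDR (95% CI 0.519 to 0.525) and 0.153% in SKYD (95% CI 0.152 to 0.155), and its summed FPKM was 3921 and 1280. The most abundant were Apoa2 with an FPKM of 793 in PDR and 294 in SKYD, Mup3 with 502 and 203, and Fabp1 with 410 and 167. Others past 2-fold included Apoa1, Serpina3k, Alb, Ttr, Mup20, Hpx, Rbp4, Apoc3, Gc, Ahsg, Serpina1b, Fgg, Ambp, Fgb, Serpina1a, Apoh, Hpd, Fga, Tat, Tdo2 and Itih4. Ass1 and Cps1, held by the periportal list too, lay within 2-fold on this scale. Trf, which macrophages also express, went the other way with 736 reads in PDR and 1146 in SKYD. The part of hepatocyte RNA in the P450 differences was not tested.

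P450 genes divide the liver lobule, with Cyp2e1 and Cyp1a2 around the central vein and Cyp2f2 around the portal vein. All 3 were higher in PDR by folds from 4.29 to 5.74. Of 9 pericentral markers, 6 passed the filter. Gulo was more than 2-fold higher in PDR, while Glul, the most abundant and also expressed by macrophages, was higher in SKYD with 1956 and 8492 reads. Oat had 3284 and 3232 reads, and Rgn had 406 and 196. Of 10 periportal markers, 9 passed, of which Pck1 and Sds were past 2-fold towards PDR and Hal towards SKYD. Asl had 841 and 811 reads. Markers of both zones were present, and neither list moved as a block.

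Markers of other cell types that hold P450 genes were also looked up. Of 6 adrenal cortex markers, 3 had reads, and Mc2r, Nr5a1 and Hsd3b6 had none, while Akr1b7 had 0 in PDR and 40 in SKYD, Star 38 and 37 and Hsd3b1 29 and 2. Of 8 kidney proximal tubule markers, Slc34a1 had 27 and 59 reads, Miox 0 and 10, Slc5a2 0 and 6, and Kap, Lrp2, Slc22a6 and Slc22a8 had none. Of 5 alveolar type 2 markers, Sftpc, Sftpb and Sftpa1 had no read, Lamp3 had 3 and 0, and Sftpd 0 and 2. Club cell markers were in the SKYD library alone, where Scgb1a1 had 316 reads and an FPKM of 26.6, Scgb3a2 90 reads and Scgb3a1 55. Cyp2f2, the club cell P450 gene, was higher in the PDR library, where these markers had no read. The source of the Cyp2f2 reads was not tested. Of 6 enterocyte markers, Fabp2 had 53 and 27 reads, Apoa4 36 and 4 and Vil1 0 and 1, and Alpi, Lct and Sis had none. Of 6 adipocyte markers, Ucp1 had 69 and 162, Cfd 0 and 36, and Cidec 15 and 42, while Adipoq had 13 and 3.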

How the data were processed

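Total RNA of sorted macrophages was sequenced by the authors, 1 library in each group, and gene values were deposited as FPKM. The submitters' processing notes name Bowtie2 2.0.6, TopHat2 2.0.9, HTSeq 0.6.1 and DESeq 3.18.1 and the build mm9. The gene positions in the table are those of GRCm38, with 98.3% of shared genes and 90 of 100 P450 genes at the start and end of GENCODE M21, and positions are printed on that build.

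The reads behind each FPKM were worked out from the gene length and the value of a single read, which gave whole numbers within 0.01 read for 100.0% of values. Comparisons used log2(FPKM + 1) for genes whose FPKM averaged 1 or more over both libraries. A count of 0 was set to 3 reads for bounds, which leave out the counting error of the other count. Read shares are of gene reads. The sizes behind the FPKM were 1.02 times the gene reads in PDR and 0.983 times in SKYD, so ratios of shares and of FPKM differ slightly. Coding sequences of GENCODE M21 were translated and aligned in pairs for identity over the shorter protein, and stretches of 100 bases were looked up in all transcripts. Clusters hold at least 4 P450 genes, with gaps under 1 Mb.

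Every P450 gene with a mean FPKM of at least 1 is named, those below it with at least 20 reads, all genes of the role lists, and of other lists the 3 most abundant genes and those past 2-fold, except some that are not reported here. Any gene named beyond these was picked once its values had been seen. Members and lists were chosen with earlier results of these data known. Steps were tested on simulated data. Alternatives were pseudocounts of 0.1 and 0.01, other filters, TPM, centring, a 4-fold threshold, other read totals and lists without similar, leading or leukocyte genes. Software was Biopython 1.88, matplotlib 3.10.9, scipy 1.17.1, pandas 2.3.3 and numpy 2.4.6 under Python 3.11.15.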

Additional observations from a re-analysis of the deposited data

Results flagged for a closer look

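Genes named like P450 genes but not protein-coding had reads outside the comparisons above. Of 31 such genes, 3 had more than the 3 reads that a count of 0 allows. The pseudogene Cyp4b1-ps2 had 48 reads in PDR and 68 in SKYD, while the protein-coding Cyp4b1 had 0 and 11. Cyp4f41-ps, next to the Cyp4f cluster, had 0 reads in PDR and 22 in SKYD. Cyp2d36-ps had 6 and 0.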

How the results depend on the processing

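No paired analysis was possible because each group has 1 library. Of 53 alternative values of 8 results, 32 stayed within the interval used for the main value or within 1.5 times the main count, and 21 moved further. For a median this was the counting interval of the single gene at the median, and no interval of a median itself was computed. No median or ratio changed direction, while a count of genes past a fold could not do so by its definition. The median difference of families 1 to 4, 1.26, was 1.83 and 1.85 with pseudocounts of 0.1 and 0.01, 0.84 with no filter and 1.78 with a mean FPKM of at least 5. It was 1.69 without the leukocyte list, an alternative chosen after seeing the data. The median of families 7 and higher, 0.76, was 0.0724 with no filter, where genes at 0 in PDR enter. The 23 genes of families 1 to 4 more than 2-fold higher in PDR became 13 of 16 at a mean FPKM of at least 5, 4 at a 4-fold threshold and 11 of 16 without proteins at least 90% identical to another. The count of families 7 and higher in PDR, 1, was 2 with either smaller pseudocount or TPM and 0 at a mean FPKM of at least 5 or 4-fold. The count in SKYD, 1, was 0 at a mean FPKM of at least 5 or 4-fold. The ratio of read shares of families 1 to 4, 2.57, was 2.35 without similar proteins, 2.71 of protein-coding reads, 3.13 without Cyp4f18 and 3.82 without the leukocyte list. That of families 7 and higher, 1.57, was 1.45 without its leading gene. Fewer genes enter the stricter filters. The cause of the other moves was not tested. Depth limits genes under about 20 reads, whose folds have wide intervals.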

Other observations

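Enzymes next to the P450 pathway went in different directions. Ephx2, which hydrolyses the epoxides that Cyp2c enzymes make from arachidonic acid, had an FPKM of 8.91 in PDR and 2.82 in SKYD, 3.16-fold higher in PDR. Ephx1, which hydrolyses epoxides of toxins, was the most abundant of its list and had 62.1 and 59.4. Ephx4 had 0 reads in PDR and 14 in SKYD, and Ephx3 had 0 and 7. Of 5 flavin monooxygenases, Fmo5 had 615 and 276 reads, Fmo1 75 and 39 and Fmo2 32 and 34. The P450 enzymes whose symbols do not start with Cyp both had more reads in SKYD. Tbxas1, the thromboxane synthase of platelets and macrophages, had 1705 in PDR and 2658 in SKYD, and Ptgis, the prostacyclin synthase, had 1550 and 2248.

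All 8 genes of haem synthesis passed the filter and lay within 2-fold, with a median difference of 0.40. Fech, the last enzyme of the route, had 39.7 in PDR and 25.9 in SKYD by FPKM, Urod had 23.9 and 35.5, and Alad had 22.0 and 11.9. Alas1, which limits haem supply in liver, had 8.70 and 6.02.

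Markers of blood and vessel cells differed as well, beside the P450 values. All 8 T cell markers were more than 2-fold higher in SKYD, with a median of -2.38 (Cd8b1, Cd3d, Cd3g, Lck, Cd8a, Cd3e, Cd247 and Cd4). The B cell markers Cd79b, Cd79a, Ms4a1 and Fcer2a were more than 2-fold higher in PDR. Neutrophil markers, whose cells also express Cyp4f18, had a median of 0.62 over 10 genes, beside 0.53 for Cyp4f18. S100a9 had an FPKM of 2209 in PDR and 1677 in SKYD, S100a8 had 1911 and 1483 and Ngp had 262 and 131, and Ltf and Ly6g were past 2-fold. Of 5 Kupffer cell markers, Cd5l had 110 and 159 and Timd4 had 25.4 and 25.3, while Vsig4 and Folr2 were more than 2-fold higher in SKYD. The fibroblast genes Dcn and Lum were more than 2-fold higher in SKYD, and Col3a1 had 122 and 291 reads. Of the endothelial genes Pecam1 had 569 and 400 reads, Cldn5 22 and 12 and Cdh5 30 and 9, while Vwf had 37 and 42, Kdr 9 and 15 and Emcn 0 and 10. Of the smooth muscle genes Acta2 had 65 and 104, Des had 141 and 55, and Cnn1, Myh11 and Tagln had none. Their part in the P450 values was not tested.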
